A study of Mus musculus with 12 samples.

Results

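The genes described here make up the lysosome's working parts. They are 43 genes of acid proteases, other acid hydrolases with their cofactors, lysosomal membrane proteins with the regulator *Tfeb*, and subunits of the proton pump. They were taken by their exact symbol from a deposited count table of 55487 gene IDs, and all 43 were found in it. They fall into 4 sets: 12 cathepsins and legumain, 13 other hydrolases and cofactors, 7 membrane proteins and *Tfeb*, and 11 proton pump genes. Of these, 41 passed the filter on low counts and were tested among 19182 genes. Cathepsin E (*Ctse*), an aspartic protease, had 2 to 14 counts a library, and *Atp6v0d2*, a pump subunit known from osteoclasts, had 2 to 10, and neither was tested.

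The series is RNA-seq of total RNA from BV2, an immortalised mouse microglial line, with 12 libraries in 4 groups of 3. The first group was kept in high glucose and given CD200Fc at 50 ng/mL (HG+CD200), and the second was kept in high glucose alone (HG). The third was kept in normal glucose and given CD200Fc at 50 ng/mL (NG+CD200), and the fourth was kept in normal glucose alone (NG). CD200Fc joins the outer part of CD200, a ligand that restrains myeloid cells through the receptor CD200R, to an antibody Fc fragment. The sources used here give neither glucose concentrations nor exposure times. The model is 1 cell line, and nothing in the labels says that replicates were separate cultures, so a p-value here reflects how far these libraries spread, and that spread may be technical. In bulk RNA, fewer cells of a type and less RNA per cell cannot be told apart.

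A lysosome digests proteins, glycans, lipids and nucleic acids delivered by endocytosis, phagocytosis and autophagy. Its enzymes work in an acid lumen, which the vacuolar ATPase maintains: a V1 sector outside the membrane splits ATP, and a V0 sector within the membrane carries protons. Many of these genes carry an E-box, CACGTG, near their start, which the factors TFEB and TFE3 bind when they enter the nucleus, and microglia rely on lysosomes to clear debris and lipids.

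Promoter windows of 300 bases (250 before and 50 from the annotated start, RefSeq on GRCm38.p6) were at hand for 34 of the 43 genes. The motif CACGTG reads the same on both strands, and it was found in the windows of 11 of the 34 genes, or 32.4%. Among 11070 tested genes with a window the share was 11.2%, and among all 32851 windows it was 7.15%. The 7 letters TCACGTG, searched on both strands and by construction overlapping the E-box, were in 26.5% of the 34 genes and in 6.59% of tested genes. The longer CLEAR palindrome, named for the lysosomal gene network of TFEB, was in 0 of the 34 and in 0.741% of tested genes. The windows of 5 genes with the motif that passed a test below, or that hold most copies of it, are shown with CACGTG in capitals, and the window of *Psap*, the gene with the lowest p in the tests below, holds no copy.
Lamp1: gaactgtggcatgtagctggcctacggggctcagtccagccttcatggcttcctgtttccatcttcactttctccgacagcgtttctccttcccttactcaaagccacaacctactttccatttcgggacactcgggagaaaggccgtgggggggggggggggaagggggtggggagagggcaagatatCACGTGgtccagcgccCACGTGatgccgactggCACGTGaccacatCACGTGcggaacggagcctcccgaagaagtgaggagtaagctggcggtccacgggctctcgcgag
Mcoln1: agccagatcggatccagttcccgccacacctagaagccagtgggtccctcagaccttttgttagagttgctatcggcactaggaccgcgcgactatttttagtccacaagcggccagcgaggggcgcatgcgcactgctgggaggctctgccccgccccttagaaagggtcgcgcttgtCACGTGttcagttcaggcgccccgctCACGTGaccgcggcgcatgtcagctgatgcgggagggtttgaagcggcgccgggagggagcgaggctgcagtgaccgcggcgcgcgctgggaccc
Atp6v0d1: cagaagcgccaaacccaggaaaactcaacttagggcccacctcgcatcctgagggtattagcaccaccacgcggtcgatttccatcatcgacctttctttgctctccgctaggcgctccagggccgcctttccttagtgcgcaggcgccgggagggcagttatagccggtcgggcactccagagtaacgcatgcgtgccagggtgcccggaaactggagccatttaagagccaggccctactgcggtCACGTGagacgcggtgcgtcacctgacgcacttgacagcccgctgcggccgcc
Ctsa: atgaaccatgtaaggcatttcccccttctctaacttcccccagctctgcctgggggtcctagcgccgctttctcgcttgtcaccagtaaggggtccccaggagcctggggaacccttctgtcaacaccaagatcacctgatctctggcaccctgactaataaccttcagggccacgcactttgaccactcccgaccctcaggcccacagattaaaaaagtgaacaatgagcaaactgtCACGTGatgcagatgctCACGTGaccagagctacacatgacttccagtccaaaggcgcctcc
Gaa: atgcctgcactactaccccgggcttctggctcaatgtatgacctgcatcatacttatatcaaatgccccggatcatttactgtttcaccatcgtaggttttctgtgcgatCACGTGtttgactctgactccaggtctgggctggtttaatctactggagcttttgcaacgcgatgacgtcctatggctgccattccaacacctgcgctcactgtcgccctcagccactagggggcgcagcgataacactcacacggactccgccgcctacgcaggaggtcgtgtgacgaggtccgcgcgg
Psap: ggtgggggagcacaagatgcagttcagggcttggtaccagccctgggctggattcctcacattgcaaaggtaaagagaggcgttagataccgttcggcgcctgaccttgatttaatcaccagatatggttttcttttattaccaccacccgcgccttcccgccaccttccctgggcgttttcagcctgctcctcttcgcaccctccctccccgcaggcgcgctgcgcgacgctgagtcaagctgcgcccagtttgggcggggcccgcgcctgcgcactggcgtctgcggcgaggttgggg
The window of *Lamp1* (chr8:13158911-13159210, plus strand) held 4 copies, 61, 45, 28 and 15 bases before the start. *Mcoln1* (chr8:3500269-3500568, plus strand) held 2, which lay 71 and 45 bases before it. *Atp6v0d1* (chr8:105566015-105566314, minus strand) held 1 copy 3 bases before the start, and *Gaa* (chr11:119267713-119268012, plus strand) held 1 copy 140 bases before it. *Ctsa* has 2 annotated starts, and the motif lies in the window of the second (chr2:164833523-164833822, plus strand), 12 bases before that start and 5 after it. Both windows of *Psap* lacked the motif, and the first is shown (chr10:60277378-60277677, plus strand). A match of letters is a description of these windows and not a binding site.

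Library totals ran from 2.15e+07 to 3.19e+07 counts, and CPM below means counts per 1000000 reads of tested genes after scaling the libraries by TMM. All 10 microglial markers averaged at least 1 CPM, with a summed level of 4907 to 5160.2 CPM in HG+CD200, 5161 to 5689 in HG, 4986 to 5117 in NG+CD200 and 5169.5 to 5330.3 in NG. A treatment text attached to the labels speaks of dissected retinas and of sorting for GFP, which does not match a cell line. Of 7 photoreceptor markers 3 averaged at least 1 CPM, and the 7 summed to 38.5 to 42.1 CPM in HG+CD200, 31.3 to 46.6 in HG, 30.4 to 38.5 in NG+CD200 and 34.3 to 41.02 in NG. *Pde6b*, a phosphodiesterase subunit of rods, made up most of this with 26.6 to 38.0 CPM in all 12 libraries, and arrestin (*Sag*) had 1.35 to 3.33 CPM. *Prph2* had 16.9 CPM in HG replicate 1 and at most 0.336 in every other library, and the part of this in the results was not tested. *Crx* was at 0 counts in every library, rhodopsin was at most 0.591 CPM, and 0 of 5 neuronal markers averaged 1 CPM. Of 5 Muller glia and astrocyte markers 3 averaged at least 1 CPM, and the 5 summed to 2.26 to 5.24 CPM over the 12 libraries. Of 5 endothelial markers 3 did so, with sums of 8.98 to 13.3 CPM. Ribosomal RNA took 1.53% of the counts in HG replicate 2 and at most 0.122% elsewhere, and the chi-square per degree of freedom over genes was 36.2 and 25.4 between that library and HG replicates 1 and 3, against 9.11 between those. HG replicate 1 was the highest of its group for 36 of the 41 tested genes and HG replicate 2 the lowest for 29, so results are also given without single libraries. NG+CD200 replicate 3, with the largest total, was the highest of its group for 32 of the 41. In NG, replicate 1 was the highest for 28 and replicate 2 the lowest for 31.

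Together the 43 genes took 2.21% to 2.32% of all counts in HG+CD200, 2.59% to 2.85% in HG, 2.44% to 2.65% in NG+CD200 and 2.54% to 2.60% in NG. Their summed level was 22932 ± 343 CPM in HG+CD200, 26950.4 ± 1433 in HG, 25154 ± 977 in NG+CD200 and 25862 ± 595 in NG (SD, n = 3 each). The 3 HG+CD200 libraries were the lowest of the 12, and the other 3 groups overlapped. Most of this sum was RNA of the cathepsins and legumain, at 13060.5 ± 261 CPM in HG+CD200, 15574 ± 1115 in HG, 14798 ± 739 in NG+CD200 and 15512 ± 417 in NG.

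Levels between genes are compared per kilobase of exon. Cathepsin K (*Ctsk*), a collagen-cleaving cysteine protease best known from osteoclasts, was at 2066 CPM per kb averaged over the 12 libraries and ranked 8 of 19182 tested genes. Cathepsin Z (*Ctsz*), a carboxypeptidase, followed at 1623 CPM per kb, and cathepsin B (*Ctsb*), a cysteine protease, at 726. Cathepsin D (*Ctsd*), the main aspartic protease of lysosomes, and *Psap*, the precursor of the saposins that present lipids to enzymes, were at 599.6 (rank 35) and 600.4 (rank 33). Granulin precursor (*Grn*) was at 449.7 CPM per kb, cathepsin S (*Ctss*) at 354 and legumain (*Lgmn*), an asparaginyl protease, at 349. At the low end were *Tfeb* at 5.36, cathepsin H (*Ctsh*) at 4.61 and cathepsin F (*Ctsf*) at 3.81 CPM per kb. Proton pump genes lay between *Atp6v0d1* at 102 and *Atp6v1d* at 12.1 CPM per kb, leaving out *Atp6v0d2* at 0.0712. The other osteoclast markers were low beside *Ctsk*: *Acp5* was at most 1.69 CPM and the calcitonin receptor *Calcr* at most 0.0424.

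**Figure D1:**
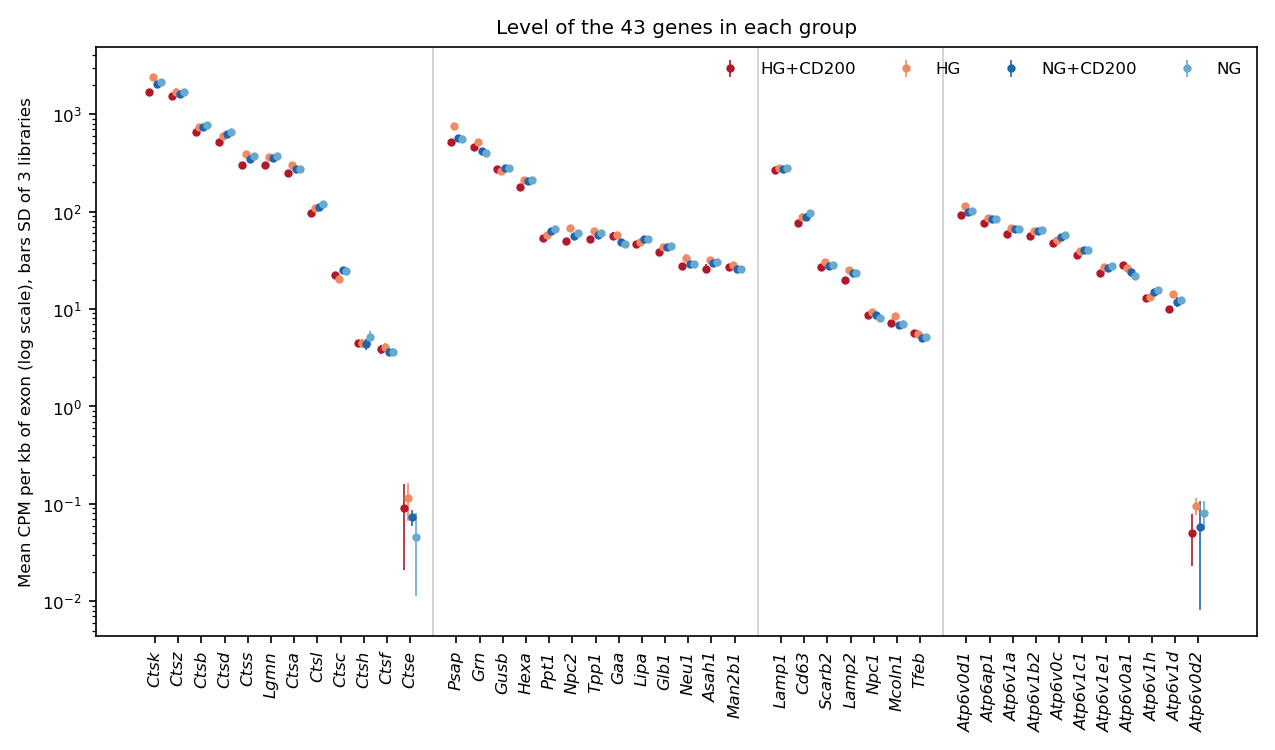
Mean level per kilobase of exon (CPM per kb, log axis) of the 43 genes in HG+CD200, HG, NG+CD200 and NG, with bars for the SD of 3 libraries, arranged by set and falling level. *Ctsk* and *Ctsz* lead at 2066 and 1623 CPM per kb over the 12 libraries, and *Ctse* and *Atp6v0d2* are at the bottom at 0.0811 and 0.0712.

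CD200Fc in high glucose (HG+CD200 against HG) went with lower RNA of these genes in every set. Of the 41 tested, 24 were lower (58.5%) and 0 higher at an adjusted p under 0.05 (edgeR quasi-likelihood test, Benjamini-Hochberg over 19182 genes), while 8.3% of all genes tested were lower and 9.46% higher, 17.8% in all. At an unadjusted p under 0.05, 27 were lower and 1 higher, while 5452 of the 19182 genes were under it in either direction. DESeq2 and limma voom called 0 of the 41 higher. The set of cathepsins and legumain gave 7 of 11 of these, and that of other hydrolases and cofactors 7 of 13. Membrane proteins with *Tfeb* gave 4 of 7, and pump genes 6 of 10. The median log2 fold change was -0.17 over the 41 and -0.02 over all genes, and 36 of the 41 lay below 0. The members stand at higher levels than most genes tested, and shares at matched level were not compared. The summed microglial markers given above were also lower in HG+CD200 than in HG, by a narrow gap between the nearest libraries. Single markers went both ways. *Adgre1* had 376 to 412 CPM in HG+CD200 and 709 to 768 in HG, while *Laptm5* had 984 to 1109 in HG+CD200 and 775 to 813 in HG. The part of these markers in the result was not tested. Without HG replicate 1 the count was 15 lower and 1 higher, without HG+CD200 replicate 2 or 3 it was 16 lower in each case, and without HG replicate 2 it was 27 lower.

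High glucose alone (HG against NG) moved genes of these sets both ways. In the same model 12 of the 41 rose and 5 fell, against 11.7% and 12.9% of all genes tested (24.6% in all), so the share that fell, 12.2%, was near that of all genes. The 12 that rose were 2 cathepsins, 6 other hydrolases and cofactors, 2 membrane proteins and 2 pump genes. The 5 that fell were 2 cathepsins, 1 other hydrolase and 2 pump genes. The median log2 fold change was 0.05 over the 41 and 0.02 over all genes. Of these 17 calls, 6 held in every alternative tried, namely *Psap*, *Grn*, *Gaa*, *Ctsc*, *Atp6v1h* and *Atp6v0a1*. The count of genes that rose was 5 without HG replicate 1 or HG replicate 3, 4 without NG replicate 1, 7 without NG replicate 2, 5 without NG replicate 3 and 6 without NG+CD200 replicate 1. The count that fell was 8 without HG replicate 1, 3 without HG replicate 2, 2 without NG replicate 1 and 3 without NG replicate 3.

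Glucose in the presence of CD200Fc (HG+CD200 against NG+CD200) gave 15 of the 41 lower and 2 higher, against 3.65% and 4.65% of all genes tested (8.3% in all). The lower genes were 6 from the set of cathepsins and legumain, 3 other hydrolases, 1 membrane protein and 5 pump genes. Over the 41 the median log2 fold change was -0.16, and it was -0.0006 over all genes. With upper quartile scaling the lower count was 9, and 69.3% of all genes called were higher, against 56.0% with TMM. The members' lower count fell to 2 without HG+CD200 replicate 2, 3 without HG+CD200 replicate 3, 7 without NG+CD200 replicate 1 and 2 without NG+CD200 replicate 3. Over all genes the lower count fell too, from 701 to 84, 234, 301 and 114 in the same order. Of the members, *Ctsd* and *Ppt1* alone passed in every alternative. The higher count was 1 without HG replicate 3, HG+CD200 replicate 3 or any 1 NG library, and 0 without HG+CD200 replicate 2, NG+CD200 replicate 1 or NG+CD200 replicate 3.

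CD200Fc in normal glucose (NG+CD200 against NG) moved none of the 41 past the threshold. No gene of the 19182 passed either, a share of 0%, with 1147 genes at an unadjusted p under 0.05 and 0 calls by DESeq2 and limma voom. The members' log2 fold changes ran from -0.23 to 0.13, and the lowest adjusted p among them was 0.816 (edgeR). Of the 41, 32 lay below 0, with a median of -0.03 against -0.0003 over all genes. The smallest unadjusted p belonged to *Cd63*, a tetraspanin of lysosomes and exosomes, with a log2 fold change of -0.14 ± 0.067 (SE). The next smallest belonged to *Ctsh* (-0.23 ± 0.11) and *Ctsl* (-0.10 ± 0.054), and the libraries of the groups overlapped for all 3.

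**Figure D2:**
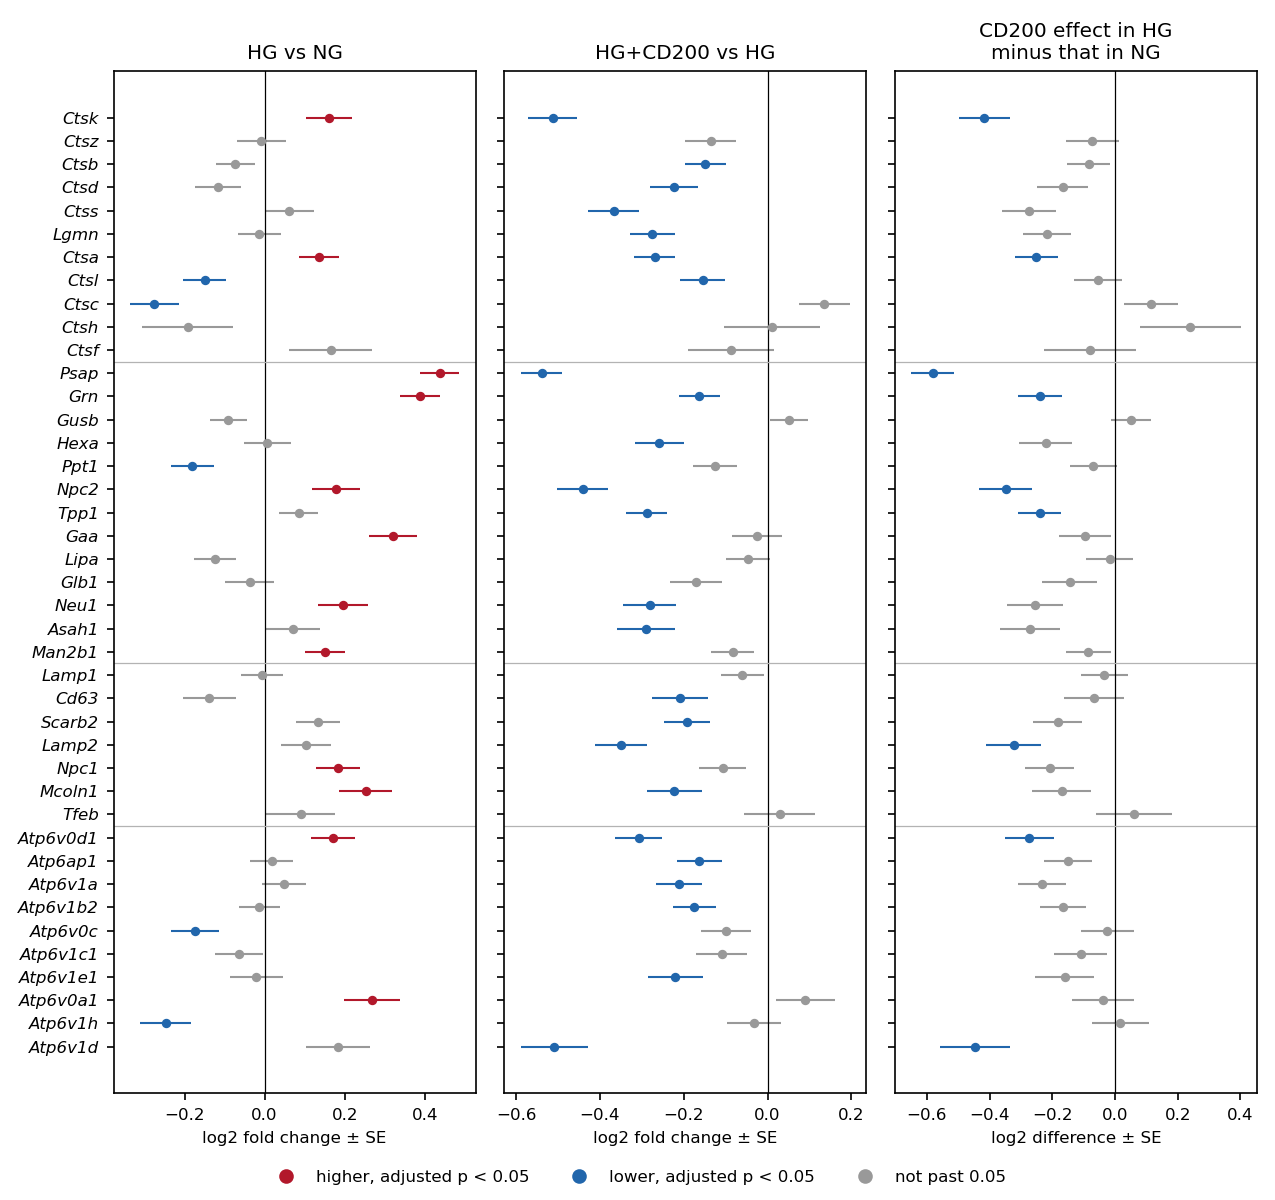
Log2 fold changes with their standard errors for the 41 tested genes in HG against NG (left) and HG+CD200 against HG (middle), and the difference between the CD200Fc effect in HG and that in NG (right), by set. Blue points are lower and red points higher at an adjusted p under 0.05, and the middle panel holds 24 blue points and no red one.

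The cathepsins are proteases that cut proteins within the lysosome and, when secreted, outside the cell. *Ctsk* (ENSMUSG00000028111, chr3:95499256-95509362, GRCm38) had 2681, 2433 and 2543 CPM in HG+CD200, 3958, 3449.7 and 3516 in HG, 2984, 2836 and 3320.4 in NG+CD200, and 3276, 3191 and 3303 in NG. All 3 HG libraries stood above every other library, and the 3 HG+CD200 libraries below. It was 29.9% lower in HG+CD200 than in HG (log2 -0.51 ± 0.058, SE, adjusted p = 3.69e-07, edgeR) and 16.2% lower in HG+CD200 than in NG+CD200 (log2 -0.26 ± 0.058, adjusted p = 0.00843). In HG it was 11.8% above NG (adjusted p = 0.0437), which rested on HG replicate 1 among others: without that library the log2 fold change was 0.08 (adjusted p = 0.378). The comparison of HG+CD200 with NG+CD200 missed the threshold without HG+CD200 replicate 2 (adjusted p = 0.0822) or NG+CD200 replicate 3 (adjusted p = 0.0776).

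*Ctss* (ENSMUSG00000038642, chr3:95526786-95556403), which keeps its activity at neutral pH and trims the invariant chain for antigen presentation, lies next to *Ctsk*. It had 425, 394 and 412 CPM in HG+CD200, 565, 508 and 514 in HG, 455, 448 and 524 in NG+CD200, and 529.9, 476 and 514 in NG. HG+CD200 lay below the other 3 groups, which overlapped each other. The fold against HG was -0.37 ± 0.061 on the log2 scale (adjusted p = 7.01e-05, edgeR), a level 22.4% lower. Against NG+CD200 the gene was also called lower in HG+CD200 (log2 -0.21), a call lost in 4 of 21 alternatives.

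Cathepsin A (*Ctsa*, ENSMUSG00000017760, chr2:164832873-164841032), a carboxypeptidase that also shields *Neu1* and *Glb1* products from breakdown, had 1195, 1189 and 1169 CPM in HG+CD200, 1498, 1335 and 1449.9 in HG, 1261, 1256 and 1331 in NG+CD200, and 1313, 1293 and 1294 in NG. HG was the highest group and HG+CD200 the lowest, with no overlap between these 2. It was 17% lower in HG+CD200 than in HG (log2 -0.27 ± 0.049, adjusted p = 0.000223, edgeR) and 9.83% higher in HG than in NG (adjusted p = 0.0454), where leaving out any 1 library other than HG replicate 2 ended the call, with an adjusted p of up to 0.302. Its exons share 495 bases with *Pltp* on the other strand, and whether reads were counted by strand is not stated in these sources, so reads of such pairs cannot be told apart.

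*Ctsc* (chr7:88278085-88310888), the dipeptidyl peptidase that activates granule proteases and is itself a member of the papain family, had 139, 124 and 129 CPM in HG+CD200, 128, 115 and 114 in HG, 140.2, 144 and 155 in NG+CD200, and 150.1, 141 and 142 in NG. Both high-glucose groups lay below both normal-glucose groups. The decrease in HG against NG was 17.4% (log2 -0.28 ± 0.061, adjusted p = 0.00133, edgeR), while HG+CD200 against HG gave 0.14 ± 0.061 with an adjusted p of 0.137. Cathepsin L (*Ctsl*), a broad cysteine endopeptidase, had 662, 606 and 619 CPM in HG+CD200, 741, 685 and 674 in HG, 701, 707 and 764 in NG+CD200, and 810.5, 757 and 762 in NG. It was lower in 3 comparisons: HG against NG (log2 -0.15, adjusted p = 0.0427), HG+CD200 against HG (-0.15, adjusted p = 0.0457) and HG+CD200 against NG+CD200 (-0.20, adjusted p = 0.0195). Each of these was lost under several alternatives, with adjusted p of up to 0.150, 0.271 and 0.134, the last without HG+CD200 replicate 2.

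*Ctsd* (ENSMUSG00000007891, chr7:142375911-142388038) had 1251, 1219 and 1167 CPM in HG+CD200, 1538, 1291 and 1417 in HG, 1443, 1428 and 1557 in NG+CD200, and 1598, 1450.1 and 1556 in NG. The HG+CD200 libraries were the 3 lowest. It was 17.9% lower in HG+CD200 than in NG+CD200 (log2 -0.28 ± 0.058, adjusted p = 0.0045, edgeR) and 14.3% lower than in HG (adjusted p = 0.00682), the second not past the threshold without HG replicate 1 (adjusted p = 0.0925) or HG+CD200 replicate 3 (adjusted p = 0.0631). *Lgmn* had 745, 690.3 and 675 CPM in HG+CD200, 893, 806 and 854 in HG, 820.2, 785 and 869.7 in NG+CD200, and 878, 842 and 858 in NG. It too was lowest in HG+CD200, by log2 -0.27 ± 0.054 against HG (adjusted p = 0.000455) and -0.23 ± 0.054 against NG+CD200 (adjusted p = 0.00955, up to 0.0749 without HG+CD200 replicate 3). *Ctsb* was 9.77% lower in HG+CD200 than in HG (adjusted p = 0.0351), and without HG replicate 1 this was -0.10 on the log2 scale (adjusted p = 0.264). *Ctsb* was also lower in HG+CD200 than in NG+CD200 (log2 -0.16), a call lost in 12 of 21 alternatives. *Ctsz*, *Ctsf* and *Ctsh* passed in no comparison, with log2 fold changes of -0.14, -0.09 and 0.01 in HG+CD200 against HG.

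**Figure D3:**
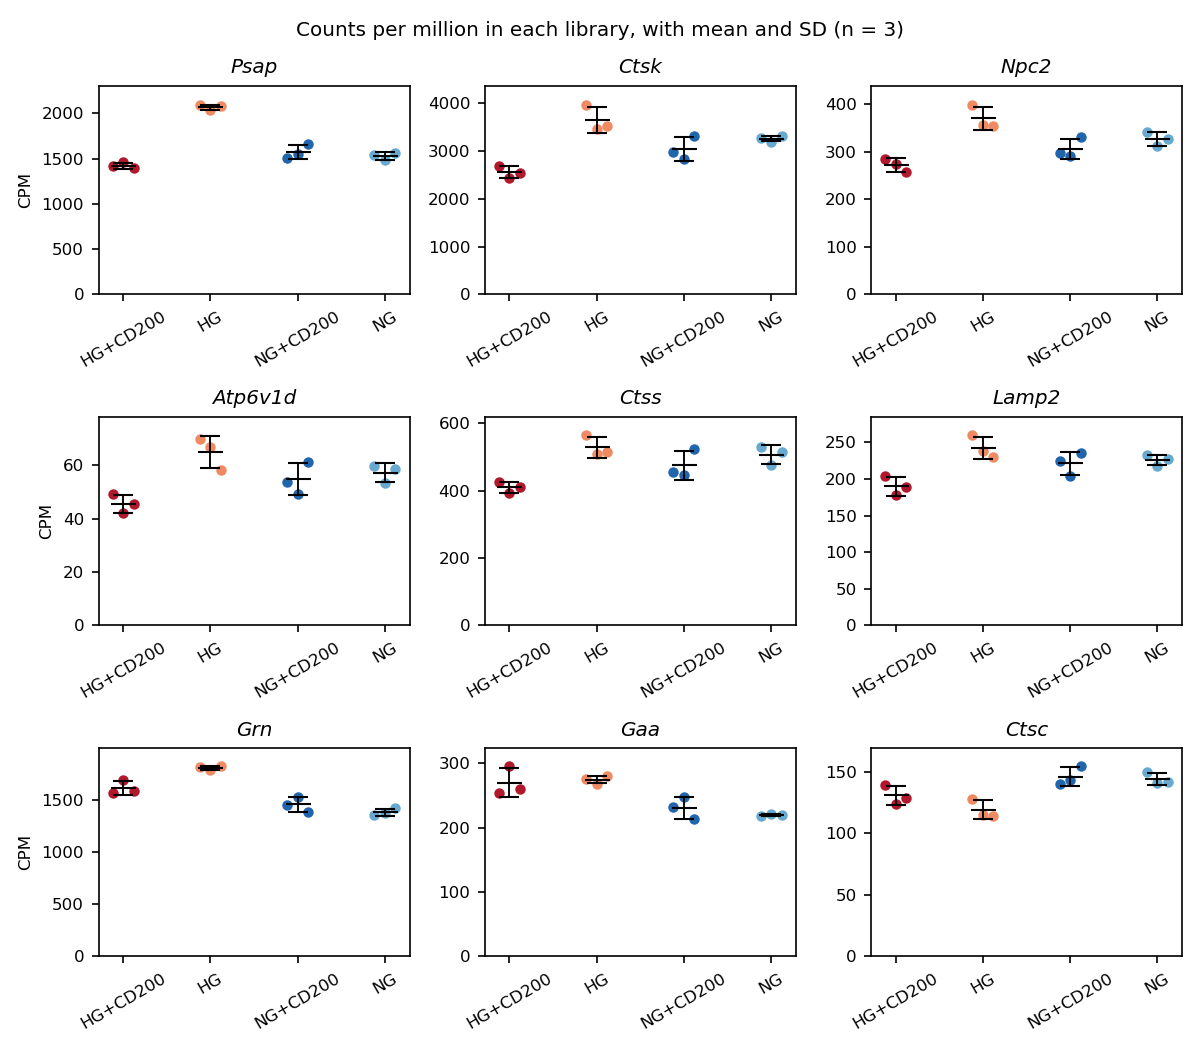
CPM of 9 genes in each library (points), with the mean and SD of 3 libraries, for HG+CD200, HG, NG+CD200 and NG, on axes that start at 0. *Psap* has 1394 to 1459 CPM in HG+CD200 and 2036 to 2088 in HG, while *Ctsc* is lower in both high-glucose groups than in both normal-glucose groups.

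The other hydrolases break down glycans and lipids, and *Psap* and *Npc2* serve them as lipid-binding cofactors. *Psap* (ENSMUSG00000004207, chr10:60277627-60302597) had 1416, 1459 and 1394 CPM in HG+CD200, 2088, 2036 and 2079 in HG, 1503, 1552 and 1661 in NG+CD200, and 1539, 1482 and 1561 in NG. Its 3 HG libraries stood far above the other 9. It was 31.2% lower in HG+CD200 than in HG (log2 -0.54 ± 0.048, adjusted p = 6.96e-09, edgeR) and 35.4% higher in HG than in NG (log2 0.44 ± 0.048, adjusted p = 1.80e-07). HG+CD200 against NG+CD200 gave -0.14 ± 0.048 (adjusted p = 0.0636).

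*Grn* (ENSMUSG00000034708, chr11:102430315-102437048), whose product is cut into granulins that support lysosomal enzymes, had 1564, 1691 and 1580.3 CPM in HG+CD200, 1807, 1785 and 1821 in HG, 1451, 1526 and 1384 in NG+CD200, and 1350.0, 1371 and 1416 in NG. Both high-glucose groups lay above both normal-glucose groups. It was 30.9% higher in HG than in NG (log2 0.39 ± 0.049, adjusted p = 1.57e-06, edgeR). In HG+CD200 it was 10.7% lower than in HG (adjusted p = 0.0205), a call lost without HG replicate 1 (adjusted p = 0.0591), HG replicate 3 (0.0901), HG+CD200 replicate 1 (0.0928) or HG+CD200 replicate 3 (0.11). *Gaa* (ENSMUSG00000025579, chr11:119267887-119285454), the acid alpha-glucosidase that degrades lysosomal glycogen, had 254, 296 and 259 CPM in HG+CD200, 276, 268 and 279 in HG, 233, 247 and 213 in NG+CD200, and 218, 221 and 220.2 in NG. Again both high-glucose groups were above both normal-glucose groups. It was 24.8% higher in HG than in NG (log2 0.32 ± 0.06, adjusted p = 0.000228) and 16.8% higher in HG+CD200 than in NG+CD200 (adjusted p = 0.0197), the second lost without HG+CD200 replicate 2 (0.195), NG+CD200 replicate 1 (0.0745) or NG+CD200 replicate 3 (0.166). HG+CD200 against HG gave -0.03 ± 0.059 (adjusted p = 0.839).

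*Npc2* (ENSMUSG00000021242, chr12:84754562-84773152), the soluble carrier that hands cholesterol to NPC1, had 286, 275 and 258 CPM in HG+CD200, 399, 357 and 355 in HG, 299, 291 and 331 in NG+CD200, and 343, 312 and 327 in NG. HG+CD200 was the lowest group and HG the highest, with no overlap with any other group. Against HG it was 26.4% lower in HG+CD200 (log2 -0.44 ± 0.06, adjusted p = 5.12e-06, edgeR), and in HG it was 13.2% above NG (adjusted p = 0.03), up to 0.262 without HG replicate 1. *Tpp1* (ENSMUSG00000030894, chr7:105744811-105752235), a tripeptidyl peptidase, had 276, 260.1 and 266 CPM in HG+CD200, 332, 321 and 328 in HG, 302, 294 and 298 in NG+CD200, and 311, 306 and 307 in NG. No group overlapped another. Its decrease in HG+CD200 was 18.1% against HG (log2 -0.29 ± 0.048, adjusted p = 7.74e-05) and 10.2% against NG+CD200 (adjusted p = 0.0451, up to 0.198 without HG+CD200 replicate 2).

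*Ppt1*, a thioesterase that removes palmitate from proteins, had 204, 192 and 191 CPM in HG+CD200, 225, 207 and 207 in HG, 231, 228 and 237 in NG+CD200, and 251, 236 and 237 in NG. Every high-glucose library lay below every normal-glucose library. It was 15.9% lower in HG+CD200 than in NG+CD200 (log2 -0.25 ± 0.053, adjusted p = 0.00555, edgeR) and 11.7% lower in HG than in NG (adjusted p = 0.0126, and 0.0584 without NG replicate 1). Its exons share 129 bases with *Cap1* on the other strand, which had 209588 counts over the 12 libraries. *Hexa*, the alpha chain of hexosaminidase, had 352, 361 and 348 CPM in HG+CD200, 442, 394 and 434 in HG, 395, 391 and 446 in NG+CD200, and 441, 394 and 429 in NG. Only HG+CD200 stood apart, by log2 -0.26 ± 0.059 against HG (adjusted p = 0.00238) and -0.21 ± 0.059 against NG+CD200 (adjusted p = 0.0243, up to 0.204 without NG+CD200 replicate 3).

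Of the remaining hydrolases, the sialidase *Neu1* was 17.7% lower in HG+CD200 than in HG (adjusted p = 0.00183, edgeR) and 14.5% higher in HG than in NG (adjusted p = 0.0228, and 0.21 without HG replicate 1). Acid ceramidase, *Asah1*, was 18.2% lower in HG+CD200 than in HG (adjusted p = 0.00318). The alpha-mannosidase *Man2b1* was 11% higher in HG than in NG (adjusted p = 0.0292), lost without any 1 of 9 libraries of the 12 (all but HG replicate 2 and HG+CD200 replicates 1 and 2) and under 3 other alternatives, with adjusted p of up to 0.222. Beta-galactosidase (*Glb1*), beta-glucuronidase (*Gusb*) and the acid lipase *Lipa* passed in no comparison. In HG+CD200 against HG their log2 fold changes were -0.17, 0.05 and -0.05. By substrate, the count lower in that comparison was 2 of 6 glycosidases and 3 of 5 lipid hydrolases and lipid-binding cofactors, a division made after the values were seen. Of all genes tested, 8.3% were lower in HG+CD200 than in HG.

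Membrane proteins line the organelle and carry lipids and ions across it. *Lamp2* (ENSMUSG00000016534, chrX:38401357-38456454), a coat protein whose isoform A is the receptor of chaperone-mediated autophagy, had 203, 178 and 189 CPM in HG+CD200, 259, 238 and 230.3 in HG, 225, 204 and 235 in NG+CD200, and 232, 218 and 227 in NG. HG+CD200 lay below all other libraries. It was 21.6% lower than in HG (log2 -0.35 ± 0.062, adjusted p = 0.000137, edgeR) and 14.1% lower than in NG+CD200 (adjusted p = 0.0268, up to 0.184 without HG+CD200 replicate 2). Its close relative *Lamp1* had 744, 717 and 682 CPM in HG+CD200, 767, 702 and 764 in HG, 757, 694 and 753 in NG+CD200, and 751, 752 and 742 in NG. The groups overlapped, *Lamp1* passed in no comparison, and its log2 fold change in HG+CD200 against HG was -0.06 ± 0.052 (adjusted p = 0.505).

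*Mcoln1* (ENSMUSG00000004567, chr8:3500457-3515232), the calcium channel of the lysosome, had 55.4, 55.9 and 52.7 CPM in HG+CD200, 63.1, 62.8 and 65.5 in HG, 52.8, 53.7 and 48.6 in NG+CD200, and 49.2, 53.9 and 57.6 in NG. Its 3 HG libraries were the highest of the 12. It was 14.3% lower in HG+CD200 than in HG (log2 -0.22 ± 0.066, adjusted p = 0.0174, edgeR, and 0.0927 without HG+CD200 replicate 3 or 0.083 without HG replicate 3). In HG it was 19.1% above NG (log2 0.25 ± 0.066, adjusted p = 0.00544, and 0.0886 without NG replicate 1). *Scarb2*, the receptor that brings glucocerebrosidase to lysosomes, had 172, 164 and 170.2 CPM in HG+CD200, 199, 188 and 192 in HG, 177, 164 and 183 in NG+CD200, and 183, 169 and 176 in NG. HG was the highest group and did not overlap any other. It was 12.5% lower in HG+CD200 than in HG (adjusted p = 0.0135, lost without HG replicate 1, 0.0788, or HG+CD200 replicate 2, 0.0778).

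*Cd63* was 13.5% lower in HG+CD200 than in HG (adjusted p = 0.0294, edgeR), and without HG replicate 1 the log2 fold change was -0.12 (adjusted p = 0.274). *Npc1*, the membrane cholesterol exporter, had 96.6, 95.9 and 98.9 CPM in HG+CD200, 108, 98.3 and 108 in HG, 99.7, 100.5 and 96.4 in NG+CD200, and 89.3, 94.0 and 93.1 in NG. Only NG lay apart, below all 9 other libraries. It was 13.5% higher in HG than in NG (adjusted p = 0.0165, up to 0.131 without NG replicate 1), and its exons share 511 bases with *Rmc1* on the other strand. *Tfeb*, the factor that drives many lysosomal genes, had 32, 33.2 and 30.8 CPM in HG+CD200, 34.7, 30 and 29.2 in HG, 26.5, 27.9 and 31.9 in NG+CD200, and 28.9, 29.5 and 30 in NG. It passed in no comparison, and HG+CD200 against HG gave 0.03 ± 0.085 (adjusted p = 0.875). RNA does not show where the TFEB protein sits in the cell.

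Among pump genes, those of the V1 sector were lower in HG+CD200 than in HG for 4 of 6. Those of the V0 sector were lower for 1 of 3 tested, with the accessory subunit *Atp6ap1* as the sixth call. Of all genes tested, 8.3% were lower in that comparison. *Atp6v1d* (ENSMUSG00000021114, chr12:78840725-78861638), a subunit of the central shaft, had 49.0, 42.3 and 45.6 CPM in HG+CD200, 69.6, 66.9 and 58.3 in HG, 53.9, 49.3 and 61.1 in NG+CD200, and 59.7, 53.4 and 58.7 in NG. Each HG+CD200 library lay below all 9 others. It was 29.7% lower than in HG (log2 -0.51 ± 0.08, adjusted p = 3.97e-05, edgeR) and 16.7% lower than in NG+CD200 (adjusted p = 0.0426, up to 0.293 without NG+CD200 replicate 3).

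*Atp6v0d1* (ENSMUSG00000013160, chr8:105524465-105566047), which links the shaft to the membrane ring, had 167, 166 and 162 CPM in HG+CD200, 212, 191 and 211 in HG, 170.1, 177 and 185 in NG+CD200, and 188, 173 and 185 in NG. HG was above and HG+CD200 below all other libraries. It was 19.2% lower in HG+CD200 than in HG (log2 -0.31 ± 0.056, adjusted p = 0.000205, edgeR) and 12.6% higher in HG than in NG (adjusted p = 0.0253, up to 0.17 without HG replicate 3). *Atp6v1a*, the catalytic subunit, had 378, 339 and 347 CPM in HG+CD200, 421, 405 and 406 in HG, 394, 384 and 431 in NG+CD200, and 400.3, 389.6 and 400.2 in NG. HG+CD200 was again the lowest group, by log2 -0.21 ± 0.054 against HG (adjusted p = 0.00612, and 0.0533 without HG+CD200 replicate 2) and -0.19 ± 0.054 against NG+CD200 (adjusted p = 0.033, up to 0.229 without NG+CD200 replicate 3).

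*Atp6v1b2*, its partner in ATP splitting, had 306, 289.9 and 301 CPM in HG+CD200, 351, 324 and 338 in HG, 327, 329 and 359.6 in NG+CD200, and 344, 335 and 342 in NG. It was 11.4% lower in HG+CD200 than in HG (adjusted p = 0.0188, edgeR) and 11.7% lower than in NG+CD200 (adjusted p = 0.032), with adjusted p of up to 0.117 without HG replicate 1 and 0.216 without NG+CD200 replicate 3. *Atp6v1e1*, of the outer stalk, was 14.1% lower in HG+CD200 than in HG (adjusted p = 0.0204, and 0.17 without HG replicate 1), and *Atp6ap1* 10.7% lower (adjusted p = 0.034, and 0.205 without HG replicate 1).

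The remaining pump genes did not pass in HG+CD200 against HG. *Atp6v0a1* (chr11:101009452-101063719), an isoform of the large proton-carrying subunit, had 169, 199.9 and 183 CPM in HG+CD200, 159, 182 and 176 in HG, 160.1, 171 and 139 in NG+CD200, and 147, 142 and 141 in NG. HG lay above NG, and HG+CD200 overlapped both HG and NG+CD200. It was 20.4% higher in HG than in NG (log2 0.27 ± 0.07, adjusted p = 0.00619, edgeR), and HG+CD200 against HG gave 0.09 ± 0.07 (adjusted p = 0.444). Despite the overlap it also passed as higher in HG+CD200 than in NG+CD200 (log2 0.23), a call lost in 10 of 21 alternatives. *Atp6v1h* (chr1:5070018-5162529), a regulatory V1 subunit, had 134, 113 and 129 CPM in HG+CD200, 132, 123 and 129 in HG, 147, 136 and 158 in NG+CD200, and 159, 148 and 150.0 in NG. Both high-glucose groups lay below both normal-glucose groups. It was 15.8% lower in HG than in NG (log2 -0.25 ± 0.064, adjusted p = 0.00512) and 14.7% lower in HG+CD200 than in NG+CD200 (adjusted p = 0.0256, up to 0.206 without HG+CD200 replicate 2). *Atp6v0c*, the ring proteolipid, was 11.3% lower in HG than in NG (adjusted p = 0.0346) with overlapping libraries, and 0.218 without HG replicate 2. This gene was also lower in HG+CD200 than in NG+CD200 (log2 -0.20), a call lost in 6 of 21 alternatives. *Atp6v1c1* passed in no comparison.

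**Figure D4:**
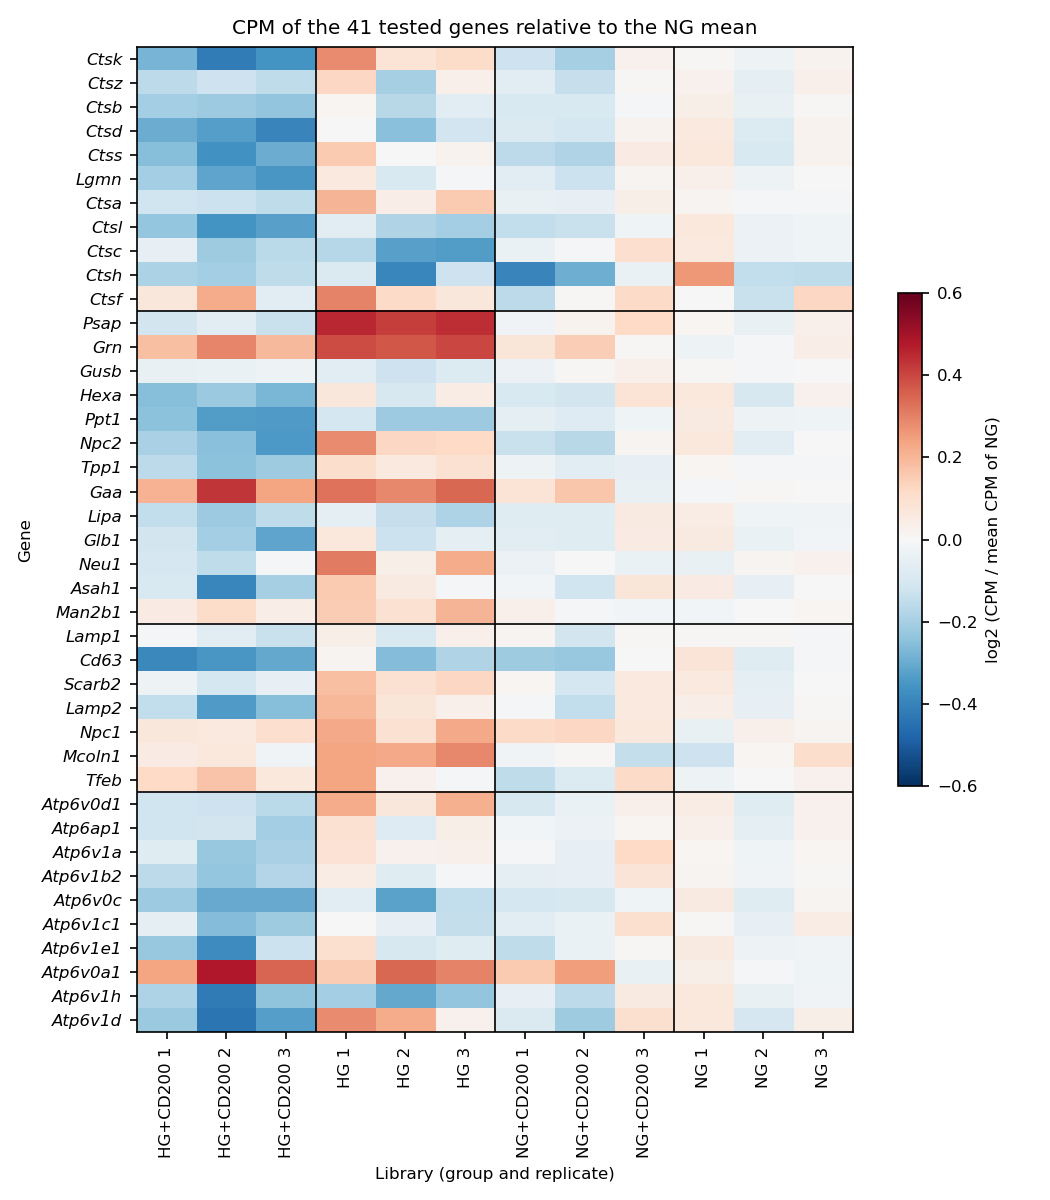
Log2 of each library's CPM over the NG mean for the 41 tested genes, by set (lines) and library, with red above and blue below the NG mean. *Psap*, *Grn* and *Gaa* are red in all 3 HG libraries, and most cathepsins and pump genes are blue in all 3 HG+CD200 libraries.

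Whether CD200Fc acted on these genes differently in high and in normal glucose was tested by the interaction, the log2 fold change of HG+CD200 against HG minus that of NG+CD200 against NG. It was below 0 and past the threshold for 9 of the 41 and above 0 for none, against 3.58% and 3.62% of all genes tested (7.2% in all). The 9 were *Psap*, *Ctsk*, *Npc2*, *Atp6v1d*, *Lamp2*, *Ctsa*, *Tpp1*, *Atp6v0d1* and *Grn*. For *Psap* the CD200Fc effect was -0.54 in high glucose and 0.04 in normal glucose, a difference of -0.58 ± 0.068 (adjusted p = 2.21e-06, edgeR). For *Ctsk* the effects were -0.51 and -0.10, a difference of -0.42 ± 0.082 (adjusted p = 0.00167). These 2 genes kept their call in every alternative tried. The count of 9 ranged from 3 to 13 when single libraries were left out, with 3 without HG+CD200 replicate 3, 4 without HG replicate 1, HG+CD200 replicate 2, NG replicate 2, NG replicate 3 or NG+CD200 replicate 3, and 5 without HG replicate 3, NG replicate 1 or NG+CD200 replicate 1. The comparisons of HG with NG and of HG+CD200 with HG share the HG libraries, so their fold changes are not independent.

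Calls were also counted by the presence of CACGTG among the 34 genes with a promoter window. The other 9 genes had no window and are left out. In HG+CD200 against HG, 7 of the 11 with the motif and 14 of the 23 without it were lower, with median log2 fold changes of -0.21 and -0.19. In HG against NG, 4 of 11 rose and 1 fell with the motif, and 7 of 23 rose and 3 fell without it. Of all genes tested, 8.3% were lower in the first comparison, and 11.7% rose and 12.9% fell in the second. The counts by motif are small, and whether the motif bears on the calls was not tested.

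Other genes of the organelle were counted from lists that exclude the 43. Of 117 tested (hydrolases, cathepsin inhibitors, membrane proteins, pump subunits, sorting factors and TFEB or mTORC1 regulators), 32 were lower (27.4%) and 11 higher (9.40%) in HG+CD200 than in HG, against 8.3% and 9.46% of all genes tested. In HG against NG 26 rose (22.2%) and 11 fell (9.40%), against 11.7% and 12.9% of all genes, so the share higher in the first comparison was near that of all genes. Lower in HG+CD200 were 15 of 35 other hydrolases and 0 were higher. Examples are the heparan sulfate enzyme *Naglu* (log2 -0.51 ± 0.064, adjusted p = 1.31e-06, edgeR), the GM2 activator *Gm2a* (-0.52) and *Pcyox1*, a prenylcysteine oxidase (-0.48). In HG against NG 12 of these 35 rose and 3 fell, with *Pcyox1* at 0.36 ± 0.067 (adjusted p = 0.000217). Of 24 other membrane proteins, 9 were lower and 4 higher in HG+CD200 than in HG, among them the chloride exchanger *Clcn7* (-0.32) and *Laptm5* (0.39), which is also 1 of the 10 microglial markers. Of 10 further pump subunits tested, 1 was lower, *Atp6v1g1* (-0.35 ± 0.074, adjusted p = 0.00133), and 0 higher, a share of 10% near that of all genes. Of 26 TFEB family and mTORC1 genes 3 were higher and 3 lower, 11.5% each and also near the shares of all genes, with *Tfe3* at 0.19 ± 0.062 (adjusted p = 0.0281). Of 21 autophagy genes 4 were lower (19.0%) and 1 higher (4.76%), against the same 8.3% and 9.46% of all genes.

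In the authors' deposited table of comparisons, members at a false discovery rate under 0.05 numbered 10 higher and 3 lower in HG against NG, 0 higher and 18 lower in HG+CD200 against HG, and 0 in NG+CD200 against NG. All of these were also called here in the same direction, but some calls made here were above 0.05 in the authors' table. In HG+CD200 against HG these were *Ctsb* (false discovery rate 0.262), *Grn* (0.147), *Ctsl* (0.142), *Atp6ap1* (0.0742), *Cd63* (0.0527) and *Ctsd* (0.0511). In HG against NG they were *Ctsk* (0.171), *Ctsa* (0.155), *Ctsl* (0.154) and *Atp6v0c* (0.0666). The authors' deposited table further sets HG+CD200 against NG, with 3 members higher and 18 lower of 41 listed. Shares of all genes called in the authors' table were not counted, so these counts have no background beside them.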

How the data were processed

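RNA-seq of 12 BV2 libraries was analysed. Per the submitters' processing notes reads were handled with build GRCm38 and these tools, in no stated order: limma and edgeR, Salmon, featureCounts from Subread, STAR and bcl2fastq. The sources used here state neither the annotation release nor the strand setting. The authors deposited raw counts per gene and library, with no normalization, and 287 lines that list a gene ID again with the same counts were left out. A second table deposited by the authors holds log2 fold changes and p-values with false discovery rates, used only for the counts credited to it.

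Genes were kept by filterByExpr, libraries scaled by TMM, and all 12 libraries entered 1 robust quasi-likelihood model with a mean for each group (edgeR 4.0.16, R 4.3.3), with Benjamini-Hochberg adjustment over 19182 genes in each comparison and a threshold of 0.05. CPM divides each count by the scaled total of tested genes. Levels per kb used the union of exons in GENCODE M21, which also gave coordinates. Standard errors are the log2 fold change divided by the square root of F. Intervals of counting error were not used, since the spread came from replicates, and the labels name no molecular identifiers. In data simulated for HG vs NG, genes changed 1.15-fold, 1.25-fold, 1.5-fold and 2-fold were recovered in 6%, 38%, 50% and 82% of cases, with 6 false calls among 18712 genes. The same folds simulated as an interaction were recovered in 0%, 6%, 24% and 66%, with 2 of 18708 genes called falsely. The changed genes were drawn at random from tested genes averaging at least 1 CPM. Recovery at the levels of the members was not simulated.

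The members, the lists and the subgroups were chosen with earlier results of these data known. In each pairwise comparison, up to 3 members of each set that passed, by smallest p, are given with every library, so a set can show more than 3 over the comparisons, and others by counts or single values, with *Lamp1* and *Tfeb* added after their values were seen. Alternatives were DESeq2 1.42.0 and its size factors, upper quartile scaling, limma 3.58.1 voom, no filter or a stricter one, only the groups compared, removal of a trend with exon length, a replicate block, and each library left out.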

Additional observations from a re-analysis of the deposited data

Results flagged for a closer look

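For 9 of the 41 tested genes the effect of CD200Fc differed between high and normal glucose by the interaction term (edgeR quasi-likelihood test, Benjamini-Hochberg over 19182 genes). All 9 differences lie below 0, so the log2 fold change of HG+CD200 against HG was the lower one. *Psap* had -0.58 ± 0.068 (adjusted p = 2.21e-06) and *Ctsk* -0.42 ± 0.082 (adjusted p = 0.00167), and both passed in every alternative tried. *Npc2* had -0.35 ± 0.085 (adjusted p = 0.00992), and 0.0547 without HG+CD200 replicate 3. *Atp6v1d* had -0.45 ± 0.11 (adjusted p = 0.0134), 0.0544 without HG+CD200 replicate 2 and 0.0562 without NG+CD200 replicate 3. The other 5 were *Lamp2* with -0.32 (adjusted p = 0.0201), *Ctsa* with -0.25 (0.0251), *Tpp1* with -0.24 (0.0287), *Atp6v0d1* with -0.27 (0.0316) and *Grn* with -0.24 (0.0338), and each of them missed the threshold without any 1 of 7 or more libraries. The test for a single value far from its group needs at least 4 libraries and was not made on groups of 3.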

How the results depend on the processing

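Over the 67 calls of members in the 4 comparisons and the interaction, 1398 values were computed under the alternatives: 1133 kept the call, 265 kept the direction and lost it, and 0 reversed. In HG vs NG the members lower numbered 9 with limma voom and 3 with upper quartile scaling, against 5. In HG+CD200 vs NG+CD200 limma voom called 2559 genes against 1593, the fit of only the groups compared gave 1 member higher against 2, and upper quartile scaling 9 lower against 15. In NG+CD200 vs NG, with 0 genes called, no filter gave 21, only the groups compared 9 and the replicate block 2. The cause was not tested.

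With 1 library left out at a time, members higher and lower ran from 4 to 12 and from 2 to 8 in HG vs NG, 0 to 1 and 15 to 27 in HG+CD200 vs HG, and 0 to 3 and 2 to 21 in HG+CD200 vs NG+CD200. Members lower in the interaction ran from 3 to 13. Genes called ran from 277 to 2288 in HG+CD200 vs NG+CD200 and from 0 to 8 in NG+CD200 vs NG. A fit with a replicate block gave 25 members lower in HG+CD200 vs HG against 24, 21 lower and 2314 genes called in HG+CD200 vs NG+CD200 against 15 and 1593, and 13 lower in the interaction against 9. Libraries of the same number did not all deviate together (correlations of -0.07 to 0.192, 5 of 18 over 0.1, 4 of these 5 between replicates 2, and 2 of 12 libraries closest to their own number throughout), so the numbers were not taken to pair libraries. *Ctse* and *Atp6v0d2* were too shallow to test.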

Other observations

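Of 5 inhibitors tested, 2 were lower in HG+CD200 than in HG (40%), against 8.3% of all genes tested. They were the serpin *Serpina3g* (log2 -1.13 ± 0.15, adjusted p = 3.70e-06, edgeR) and cystatin B, *Cstb* (-0.42 ± 0.1, adjusted p = 0.0124). *Serpina3g* was also higher in HG than in NG (1.16 ± 0.15, adjusted p = 1.98e-06). Cystatin C, *Cst3*, was lower in HG than in NG (-0.31 ± 0.079, adjusted p = 0.00664). Of 17 factors that sort cargo to the lysosome, 4 were higher (23.5%) and 2 lower (11.8%) in HG+CD200 than in HG, against 9.46% and 8.3% of all genes tested. The higher ones were *Nagpa* (0.24) and *Gnptab* (0.21), enzymes that make the mannose 6-phosphate tag, with *Vps33a* (0.18) and *Vps18* (0.17). The lower ones were *Vps39* (-0.43 ± 0.058, adjusted p = 5.17e-06, edgeR) and *Vps41* (-0.27). In HG against NG 3 of the 17 rose (17.6%) and 2 fell (11.8%), against 11.7% and 12.9% of all genes tested. The share that fell was thus near that of all genes. Among those that rose, *Vps39* was at 0.45 ± 0.058 (adjusted p = 1.93e-06, edgeR). Of 21 autophagy genes, 4 (19.0%) were lower and 1 (4.76%) higher in HG+CD200 than in HG, against 8.3% and 9.46% of all genes tested. Lower were the LC3 family members *Gabarap* (-0.45) and *Map1lc3a* (-0.34), with *Wipi1* (-0.49) and *Becn1* (-0.20). Higher was *Plekhm1* (0.22).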
